A study of Mus musculus with 17 samples.

Results

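The genes described here are 10 genes of the perineuronal net and of the brain matrix proteoglycans, out of 55471 genes counted in the hippocampus. The rule names them for their roles and uses no expression value, but they were proposed with earlier results of these data known, and each matched 1 gene identifier in the count table. The lecticans Acan, Bcan, Ncan and Vcan, the link proteins Hapln1 and Hapln4, the tenascins Tnr and Tnc, and the hyaluronan synthases Has2 and Has3 make up the set. All 10 had counts in every library, from 3 to 12 counts for Has2 up to 1728 to 5420 for Tnr.

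Total RNA from the hippocampi of individual mice on a C57BL/6J background (C57BL/6 in the labels), 3 to 6 months old, was sequenced in 17 libraries. CBP-ifKO mice carried floxed Crebbp alleles and the Camk2a-creERT2 transgene, which drives a tamoxifen-dependent Cre in forebrain excitatory neurons. CBP is a histone acetyltransferase and coactivator. Per the methods, those neurons then make a truncated CBP without acetyltransferase activity. Control mice were littermates that, per the methods, lacked creERT2 (their labels name Camk2a_creERT2 without the floxed allele), and mice of both genotypes received tamoxifen. In each genotype, Sal mice were never kindled and got saline, PTZ0 mice were kindled with 45 mg/kg of the convulsant pentylenetetrazol (PTZ) on alternate days and got saline at the end, and PTZ45 mice were kindled in the same way and got 45 mg/kg PTZ at the end, 45 min before the tissue was taken. There were 3 mice per group and 2 in Control PTZ45. Kindled here means given this course of injections. Per the paper it led to seizures in all controls, while no CBP-ifKO reached the stage of progressive seizures. In the PTZ groups seizure history and genotype therefore cannot be told apart.

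Perineuronal nets are lattices of extracellular matrix that enwrap the soma and proximal dendrites of certain neurons, best known from parvalbumin interneurons and, in the hippocampus, also from CA2 pyramidal cells. Their backbone is hyaluronan, a long sugar polymer spun out by hyaluronan synthases at the cell surface. Lecticans bind hyaluronan with one end, link proteins clamp that bond, and tenascin-R ties the other ends of the lecticans together. Aggrecan (Acan) is made mainly by neurons with nets, brevican (Bcan) and neurocan (Ncan) largely by astrocytes, and versican (Vcan) largely by oligodendrocyte precursors.

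The libraries held 5831992 to 18735643 counts. Crebbp was lower in every CBP-ifKO library (1061 to 1337 normalized counts, that is counts divided by the DESeq2 size factors) than in every control library (1824 to 2429). Fos, an activity marker, had 2699 ± 306 normalized counts (SD, n = 2) in Control PTZ45 against 39.6 ± 19.7 (SD, n = 3) in Control Sal. In CBP-ifKOs it had 234 ± 64.0 (SD, n = 3) in PTZ45 against 31.4 ± 3.88 (SD, n = 3) in Sal, so Fos rose far less in CBP-ifKO PTZ45. All 8 excitatory neuron markers checked were present in every library. Choroid plexus RNA, marked by Ttr, set 5 libraries apart with more than 1000 normalized counts of Ttr: Control Sal 2, CBP-ifKO Sal 1, Control PTZ0 2, CBP-ifKO PTZ0 3 and CBP-ifKO PTZ45 2. By their labels, Control Sal and Control PTZ0 ran on sequencing lane 3, CBP-ifKO Sal and Control PTZ45 on lane 4, and CBP-ifKO PTZ0 and PTZ45 on lane 5, so that within a treatment genotype and lane cannot be told apart.

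The 4 lecticans differed in the DNA just before their start sites. The promoter sequences are shown because 3 of these genes were called lower in CBP-ifKOs, as described below, and the 250 bases before the RefSeq start are given 5′ to 3′ on the strand of the gene (RefSeq, build GRCm38.p6), in lower case with CG dinucleotides in capitals. Acan lies at chr7:79052976-79053225 on the plus strand. The other 3 are on the minus strand, Bcan at chr3:88000357-88000606, Ncan at chr8:70120845-70121094 and Vcan at chr13:89742513-89742762.
Acan: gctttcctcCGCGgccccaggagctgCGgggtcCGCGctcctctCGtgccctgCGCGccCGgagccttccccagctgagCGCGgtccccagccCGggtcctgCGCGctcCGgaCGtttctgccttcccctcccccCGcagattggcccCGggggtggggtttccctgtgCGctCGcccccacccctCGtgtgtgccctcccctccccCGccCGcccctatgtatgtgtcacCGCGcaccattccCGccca
Bcan: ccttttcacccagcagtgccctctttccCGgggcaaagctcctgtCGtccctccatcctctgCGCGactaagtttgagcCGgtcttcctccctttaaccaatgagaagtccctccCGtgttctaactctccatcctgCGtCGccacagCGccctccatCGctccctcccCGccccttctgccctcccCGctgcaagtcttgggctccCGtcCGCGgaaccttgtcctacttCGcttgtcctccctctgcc
Ncan: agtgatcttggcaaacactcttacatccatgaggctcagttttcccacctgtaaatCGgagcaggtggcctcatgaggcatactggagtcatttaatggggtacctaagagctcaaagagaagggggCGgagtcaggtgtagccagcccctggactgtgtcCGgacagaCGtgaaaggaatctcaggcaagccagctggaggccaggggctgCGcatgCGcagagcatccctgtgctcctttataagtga
Vcan: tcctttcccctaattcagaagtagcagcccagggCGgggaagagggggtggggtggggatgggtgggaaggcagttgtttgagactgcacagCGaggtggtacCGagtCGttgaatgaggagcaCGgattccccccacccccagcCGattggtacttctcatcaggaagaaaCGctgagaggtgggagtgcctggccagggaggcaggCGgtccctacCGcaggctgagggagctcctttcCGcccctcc
The Acan window was 74.4% G or C and held 26 CG dinucleotides, more than 90.4% of 32841 mouse promoter windows of the same length, whose medians were 52.4% and 6. Bcan had 16 CG dinucleotides and Vcan 10, while Ncan, with 6, was at the median. Of the 10 genes, 7 were in the promoter table, and none of their windows held the CRE octamer TGACGTCA, the shorter CRE core TGACG or the AP-1 site TGANTCA on either strand. These letters were found in 1.5%, 17.8% and 6.8% of all windows, where every CRE octamer also counts as a match of the core. The absence of a match says only that these letters are not in this window.

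Per kilobase of exon, brevican, neurocan and tenascin-R mRNA were the most abundant of the set. Over all 17 libraries Bcan had 354 ± 43.1 normalized counts per kb (SD), Ncan 294 ± 32.4 and Tnr 263 ± 25.8. Bcan lay above Ncan in 17 of 17 libraries and Ncan above Tnr in 14 of 17, but the ranges of these neighbours overlapped. The next gene, Hapln4, whose protein BRAL2 is a brain link protein, had 110.1 ± 14.2 and was separated from Tnr by 2.39-fold with no overlap.
Below it followed Hapln1, the link protein CRTL1, at 67.8 ± 5.33, Vcan at 43.6 ± 4.09, Tnc at 21.1 ± 2.79 and Has3 at 15.8 ± 1.72 normalized counts per kb. Of these neighbours only Tnc and Has3 overlapped in range. Acan, at 7.08 ± 1.89, and Has2, at 1.69 ± 0.54, were the lowest. Aggrecan made up 1.14% ± 0.192 (SD, n = 8) of the 4 lectican levels per kb in controls, and the share in the 9 CBP-ifKOs was 0.890% ± 0.173 (SD). Bcan made up 50.3% and 50.9%.

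The first question was whether the net genes depend on CBP irrespective of treatment, which was tested in 1 fit of all libraries with treatment as a term. Acan, Ncan and Vcan were lower in CBP-ifKOs, and the other members were not called. Called here means a Benjamini-Hochberg adjusted p under 0.05 in the Wald test of DESeq2, and 3 of the 9 members with an adjusted p were called lower and 0 higher (edgeR also called 3), against 11.5% of 18682 genes called lower and 7.76% called higher. The median log2 fold change of the 10 members was -0.14, against 0.01 over the genes tested.

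Acan encodes aggrecan, the proteoglycan that defines nets. In controls it had 53.8, 55.4 and 87.7 normalized counts in Sal, 65.0, 53.9 and 71.4 in PTZ0, and 56.6 and 61.9 in PTZ45. In CBP-ifKOs it had 33.95, 58.1 and 49.5 in Sal, 43.8, 32.5 and 51.3 in PTZ0, and 46.3, 45.0 and 33.0 in PTZ45. Of the 9 CBP-ifKO libraries only Sal 2 reached into the control range, which began at 53.8, and Control Sal 3 was the highest of all. The log2 fold change was -0.54 (SE 0.15, with an adjusted p of 0.00229 from DESeq2), a change of -31.5% with a 95% interval from -43.8% to -16.3%. The call rests on 28 to 97 raw counts per library.

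Versican, encoded by Vcan, is a large lectican with several splice forms. Its normalized counts in controls were 684, 693 and 721 in Sal, 659, 631.3 and 661 in PTZ0, and 691 and 705 in PTZ45. In CBP-ifKOs they were 594, 556 and 549 in Sal, 583, 631.0 and 517 in PTZ0, and 641, 605 and 605 in PTZ45. Within each treatment all CBP-ifKO libraries lay below all control libraries, although in PTZ0 the nearest pair, at 631.3 and 631.0, all but touched. Over all treatments its log2 fold change came to -0.22 (SE 0.05, with an adjusted p of 3.26e-05 from DESeq2), a change of -14.2% with a 95% interval from -19.4% to -8.69%.

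Neurocan, encoded by Ncan, is an abundant lectican of the young and adult brain matrix. In controls it had 2098, 2341 and 2455 normalized counts in Sal, 2505, 2250.0 and 2179.5 in PTZ0, and 2206 and 2008 in PTZ45. In CBP-ifKOs it had 2005, 2334 and 2048 in Sal, 2283, 1924 and 2043 in PTZ0, and 1780.05, 1783 and 1723 in PTZ45. The genotypes overlapped in Sal and PTZ0 and were apart only in PTZ45. The log2 fold change was -0.17 (SE 0.05, with an adjusted p of 0.00474 from DESeq2), a change of -11.1% (95% interval -16.7% to -5.00%). Without the 5 libraries rich in choroid plexus RNA, Ncan had a log2 fold change of -0.16 and was not called (adjusted p 0.0884 by DESeq2), while Acan and Vcan were still called, with -0.61 and -0.21.

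Brevican, encoded by Bcan, narrowly missed the threshold. Its normalized counts in controls were 1501, 1713 and 1699.6 in Sal, 1683, 1524 and 1410.15 in PTZ0, and 1421 and 1228 in PTZ45. In CBP-ifKOs they were 1319.6, 1494 and 1524 in Sal, 1582, 1411 and 1296 in PTZ0, and 1188, 1143 and 1318 in PTZ45. The genotypes overlapped in each treatment. The log2 fold change was -0.14 (SE 0.05, with an adjusted p of 0.0522 from DESeq2), and Bcan was called in 6 of the 17 fits that each left out 1 library, with adjusted p from 0.0139 to 0.139. With a correction for the GC content of transcripts the value was -0.06 (adjusted p 0.351 by DESeq2).

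**Figure D1:**
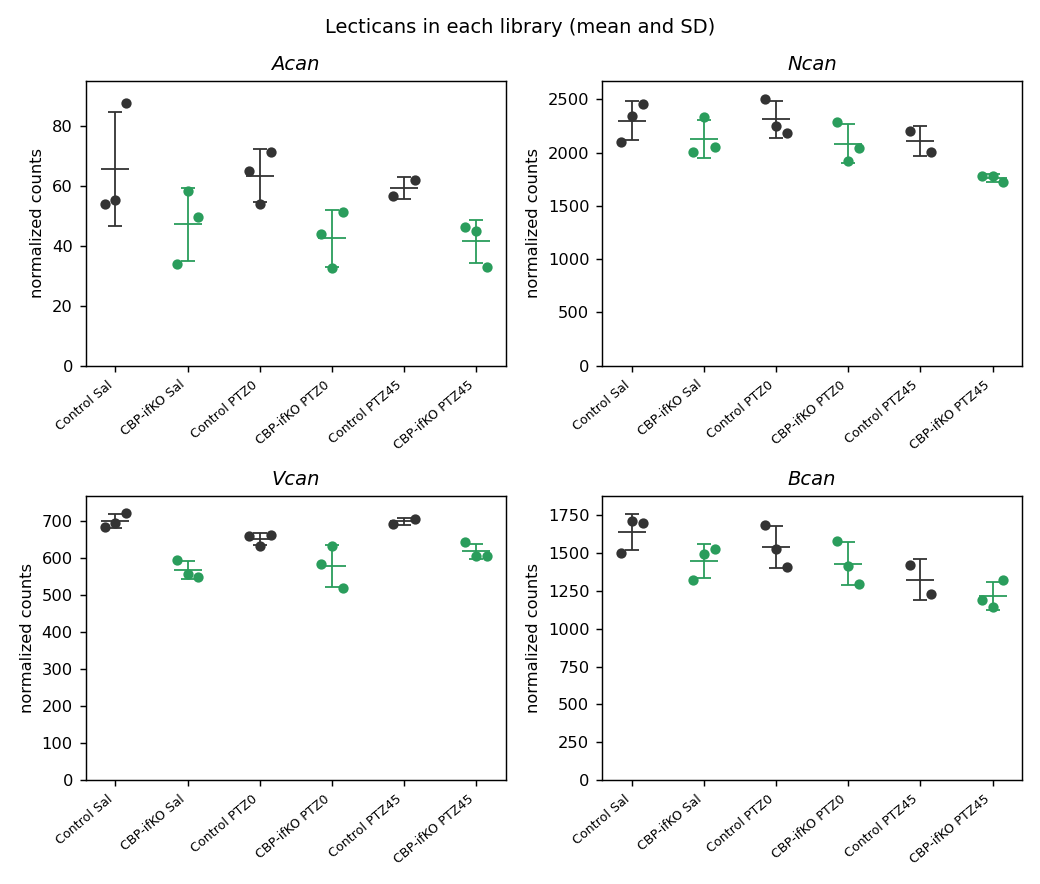
Normalized counts of the 4 lecticans in each library (points), with the mean and SD of each group of 3 mice (2 in Control PTZ45), controls in black and CBP-ifKOs in green. The 3 CBP-ifKO means of Acan, 41.4 to 47.2, lie below the 3 control means, 59.3 to 65.6, and all Vcan libraries of CBP-ifKOs lie below the controls of their treatment.

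The lane of sequencing moved with genotype. With lane as a further term in the same fit, the log2 fold changes were -0.47 (SE 0.49) for Acan, -0.22 (SE 0.15) for Ncan and -0.30 (SE 0.15) for Vcan, and no member was called by DESeq2, with 1 at an unadjusted p under 0.05, Vcan, whose adjusted p was 0.768. In that fit 131 genes of the whole table were called, against 3606 without the lane term. Crebbp was among the 131, at -0.98 on the log2 scale (SE 0.18, adjusted p 1.53e-05 by DESeq2).

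Markers of several cell types differed with genotype. Of 8 markers of oligodendrocyte precursors, cells that make much of the versican, 6 were called lower and 0 higher, against 11.5% of all genes called lower and 7.76% higher, with a median log2 fold change of -0.29, and their summed level was 2357 to 2568 normalized counts in controls and 1888 to 2224 in CBP-ifKOs. Interneuron markers were called lower in 3 of 10, and their sum was 10580.4 to 11095 in controls and 9644 to 10493 in CBP-ifKOs, while Pvalb itself had -0.16 (SE 0.09, adjusted p 0.235). For astrocytes 4 of 10 markers were called lower, with a sum of 65920.5 to 74618 against 62338 to 70644. Of 6 CA2 pyramidal markers 3 were called lower and 1 higher, and their sum was 2187 to 2535 against 1446 to 1727. Of the remaining lists, excitatory neuron markers were called lower in 2 and higher in 1 of 8, endothelial and mural markers lower in 1 of 8, and meningeal markers lower in 1 of 6. Of 8 oligodendrocyte markers 0 were called by DESeq2 and 0 by edgeR, with 6 at an unadjusted p under 0.05, and of 8 microglia markers 0 were called by either, with 0 at that level. Of 7 choroid plexus markers 1 had an adjusted p and 0 were called by DESeq2 or edgeR, with 0 at an unadjusted p under 0.05, and their sum ran from 429 to 24566 normalized counts in controls and from 430 to 44513 in CBP-ifKOs. Once the 5 libraries were left out, 3 of these 7 were called. With lane as a term 0 markers of the precursor, interneuron and astrocyte lists and 2 of the CA2 list were called, where 131 of 16404 genes were. Without the 5 libraries rich in choroid plexus RNA 3 precursor, 3 interneuron, 2 astrocyte and 3 CA2 markers were called, where 1870 of 15846 genes were. No marker of the precursor, interneuron, astrocyte and CA2 lists was at 0 in any library, and their part in the result was not tested. In bulk tissue fewer cells of a type and less RNA per cell cannot be told apart.

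The link proteins, tenascins and hyaluronan synthases gave no call with genotype. For Hapln1 the 8 controls averaged 402 ± 35.5 normalized counts (SD) and the 9 CBP-ifKOs 398 ± 29.5 (SD). Its log2 fold change was -0.03, with a 95% interval from -0.15 to 0.09. Hapln4, the link protein that partners brevican at nets, was 411 ± 51.3 and 451 ± 55.1, with a log2 fold change of 0.13 and an interval from -0.02 to 0.28.
Tenascin-R, encoded by Tnr, ranged from 2899 to 3988 in controls and from 2731 to 3788 in CBP-ifKOs, with a log2 fold change of -0.07 (interval -0.20 to 0.06). Tenascin-C, encoded by Tnc and made by astrocytes and their precursors, ranged from 118 to 192 and from 133 to 208, with a log2 fold change of 0.13 (interval -0.03 to 0.30). The ranges of the genotypes overlapped for both link proteins and both tenascins.
Has3, a synthase of shorter hyaluronan chains, had 88.0 to 121 normalized counts in controls and 84.1 to 118 in CBP-ifKOs, with a log2 fold change of -0.14 (interval -0.32 to 0.05). Has2, the synthase of long chains, had 3 to 12 raw counts and got no adjusted p, and its interval from -0.95 to 0.38 includes 0, so that a difference was not detectable at this depth.

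**Figure D2:**
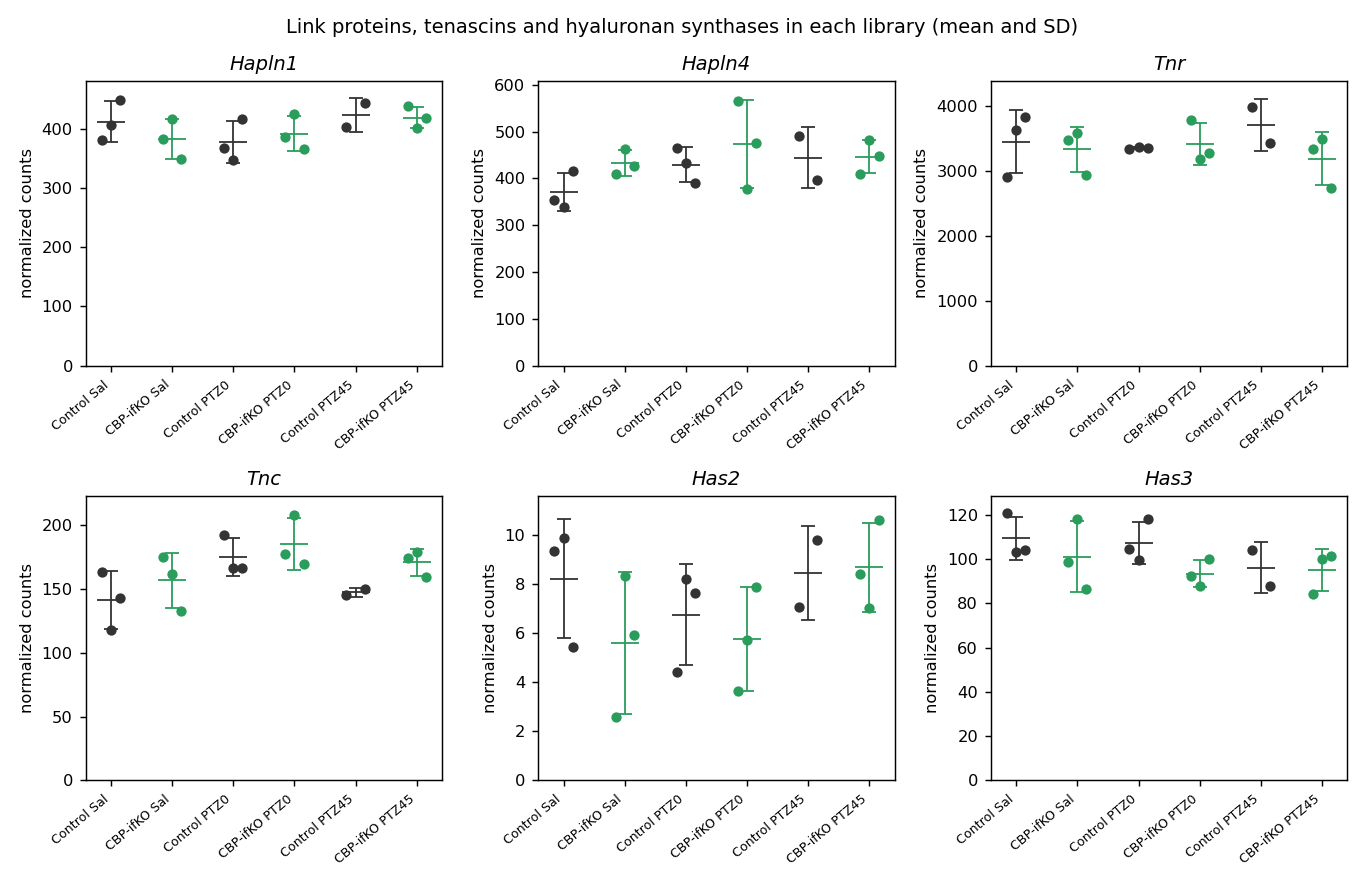
Normalized counts of the link protein, tenascin and hyaluronan synthase genes in each library (points), with group mean and SD, controls in black and CBP-ifKOs in green. Pooled over treatments, Control and CBP-ifKO libraries overlap in range for each of the 6 genes, while within PTZ45 the Tnc libraries of CBP-ifKOs lie above the controls. Has2 reaches at most 10.6 normalized counts.

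Within single treatments no member was called, and the median log2 fold change of the 10 members was -0.14 in Sal, -0.13 in PTZ0 and -0.07 in PTZ45, against -0.00, 0.00 and 0.00 over the genes tested. In Sal, 0 of 9 members with an adjusted p were called by DESeq2 and 0 by edgeR, with 2 at an unadjusted p under 0.05, against 2.04% of genes called. The lowest adjusted p was that of Vcan, 0.0980, with a log2 fold change of -0.30 (SE 0.10). In 1 fit of all 17 libraries, which pools the spread over the groups, Vcan was called in Sal (-0.30, adjusted p 0.0137 by DESeq2). Of the members that averaged 50 or more normalized counts, 1 of 9 did not overlap, namely Vcan, against 21.9% of such genes apart in either direction. Acan had -0.53, Bcan -0.19, Ncan -0.12, Hapln1 -0.12, Tnr -0.06, Has3 -0.15 and Has2 -0.67, while Hapln4 had 0.21 and Tnc 0.13.

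In PTZ0, the test again called 0 of the 8 members with an adjusted p by DESeq2 and 0 by edgeR, with 2 at an unadjusted p under 0.05, and 6.68% of genes were called. Acan had a log2 fold change of -0.58 (SE 0.28), with no adjusted p after independent filtering, Vcan -0.17 (SE 0.10), Ncan -0.15, Bcan -0.11 and Has3 -0.20. Acan and Vcan, 2 of 9 members, did not overlap between genotypes, against 28.6% of genes apart in either direction. Hapln1 had 0.05, Hapln4 0.14, Tnr 0.03, Tnc 0.08 and Has2 -0.19.

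In PTZ45, where 3.07% of genes were called, 0 of 9 members were called by DESeq2 and 0 by edgeR, with 1 at an unadjusted p under 0.05. That member was Ncan, at -0.26 (SE 0.09, with an adjusted p of 0.112 from DESeq2). Acan, Ncan and Vcan were lower and Tnc higher without overlap, 4 of 9 members against 34.5% of genes apart in either direction. Acan had -0.51, Vcan -0.18, Bcan -0.12, Tnr -0.21, Hapln1 -0.01, Hapln4 0.01, Tnc 0.22, Has3 -0.02 and Has2 0.05. Acan, Ncan, Vcan, Bcan and Has3 had a negative value in each of the 3 treatments, and Hapln4 and Tnc a positive one.

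**Figure D3:**
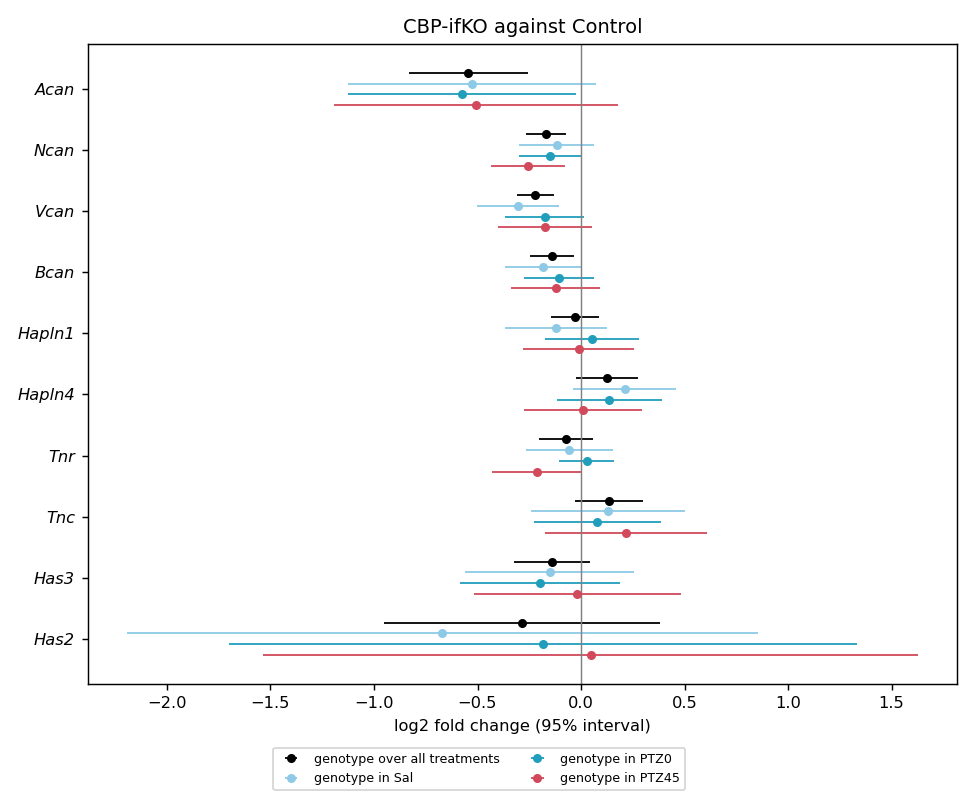
Log2 fold change of CBP-ifKO against Control with its 95% interval, over all treatments (black) and within Sal (pale blue), PTZ0 (blue) and PTZ45 (red). The intervals over all treatments of Acan, Ncan, Vcan and Bcan lie below 0, and the estimates of these 4 genes and of Has3 are negative in each treatment.

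The second question was whether the net genes respond to PTZ or to kindling. No member was called in any of the 6 comparisons of treatments, by DESeq2 or by edgeR. In Control PTZ45 against Sal 0 of 9 members were called, 1 had an unadjusted p under 0.05, and 1.17% of genes were called. Bcan had the lowest value, with 1501 to 1713 normalized counts in Sal and 1421 and 1228 in PTZ45, a log2 fold change of -0.31 (SE 0.10, with an adjusted p of 0.167 from DESeq2) with no overlap, 1 of 9 members against 33.9% of genes apart in either direction. Ncan had -0.13, Acan -0.15, Vcan -0.01, Hapln1 0.04, Hapln4 0.26, Tnr 0.10, Tnc 0.05, Has2 0.03 and Has3 -0.19.

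In CBP-ifKO PTZ45 against Sal 0 of 10 members were called, 2 had an unadjusted p under 0.05, and 0.294% of genes were called. These 2 were Ncan, which had 2005 to 2334 in Sal and 1723 to 1783 in PTZ45, at -0.27 (SE 0.09, with an adjusted p of 0.316 from DESeq2), and Bcan, with -0.25 (SE 0.10, adjusted p 0.707). Both were lower without overlap, and Vcan, at 0.12 (SE 0.11), was higher without overlap, 3 of 9 members against 14.6% of genes apart in either direction. Acan had -0.15, Hapln1 0.14, Hapln4 0.05, Tnr -0.06, Tnc 0.13, Has2 0.74 and Has3 -0.06.

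GC content moved with these comparisons. Across 13041 genes, which are no independent replicates, the log2 fold change of PTZ45 against Sal had a Spearman correlation of -0.56 with transcript GC content in controls and of -0.54 in CBP-ifKOs. Bcan is 60.7% G or C and Ncan 55.1%, against a median of 48.5% for these genes. With the GC correction the value of Bcan became -0.09 in controls and -0.02 in CBP-ifKOs, and that of Ncan -0.03 and -0.19. Lane differs in both comparisons, 3 against 4 in controls and 4 against 5 in CBP-ifKOs, and its part was not tested.

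The last injection alone, PTZ45 against PTZ0, was compared next, and the PTZ0 libraries of each genotype enter here and in the kindling comparison. In controls 0 of 9 members were called, 1 had an unadjusted p under 0.05, and 1.25% of genes were called. Bcan had -0.22 (SE 0.10) and Ncan -0.14, Tnr was higher without overlap at 0.14 (SE 0.07), Vcan was higher without overlap at 0.10, and Tnc was lower without overlap at -0.25. The Spearman correlation of the change with GC content was -0.52 here, and with the GC correction Bcan became -0.05 and Ncan -0.04. These are 3 of 9 members apart, against 35.7% of genes in either direction. With 1 of the 2 Control PTZ45 libraries left out, that arm holds 1 library, which is assumed to vary like the PTZ0 libraries that alone give the spread. In such fits, without replicate 1 Bcan was called (-0.33, adjusted p 0.0470 by DESeq2), and without replicate 2 Tnr was called (0.25, adjusted p 0.0154). Acan had -0.11, Hapln1 0.16, Hapln4 0.05, Has2 0.33 and Has3 -0.16.

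In CBP-ifKOs this comparison stayed within lane 5. None of the 10 members was called, 2 had an unadjusted p under 0.05, and 0.0872% of genes were called. Ncan had -0.24 (SE 0.08, with an adjusted p of 0.931 from DESeq2) and was the 1 of 9 members without overlap, against 10.9% of genes, and Bcan had -0.23 (SE 0.09). The Spearman correlation of the change with GC content was -0.45 within this lane, and with the GC correction Ncan became -0.19 and Bcan -0.07. Acan had -0.04, Vcan 0.10, Hapln1 0.10, Hapln4 -0.08, Tnr -0.10, Tnc -0.11, Has2 0.55 and Has3 0.02.

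Kindling without a last dose, PTZ0 against Sal, gave no call in either genotype. In controls, within lane 3, 0 of 10 members were called and 0 had an unadjusted p under 0.05, with 0.00843% of genes called. Tnc had 164, 118 and 143 normalized counts in Sal and 192, 166 and 167 in PTZ0, with the nearest libraries close together and a log2 fold change of 0.30 (95% interval -0.02 to 0.62) and no overlap. Vcan was lower without overlap at -0.10 (interval -0.27 to 0.06), and these 2 of 9 members compare with 7.94% of genes apart in either direction. Acan had -0.05, Bcan -0.09, Ncan 0.01, Hapln1 -0.12, Hapln4 0.21, Tnr -0.04, Has2 -0.29 and Has3 -0.03.
In CBP-ifKOs, across lanes 4 and 5, 0 of 10 were called, 0 had an unadjusted p under 0.05, and 0.0112% of genes were called. Tnc had 0.24 (interval -0.11 to 0.59), Hapln4 0.13, Acan -0.11, Bcan -0.02, Ncan -0.03, Vcan 0.02, Hapln1 0.04, Tnr 0.04, Has2 0.17 and Has3 -0.08, and 0 of 9 members were apart, against 5.81% of genes in either direction. In controls the interval of Ncan ran from -0.14 to 0.16, and that of Acan, with far fewer counts, from -0.55 to 0.46.

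**Figure D4:**
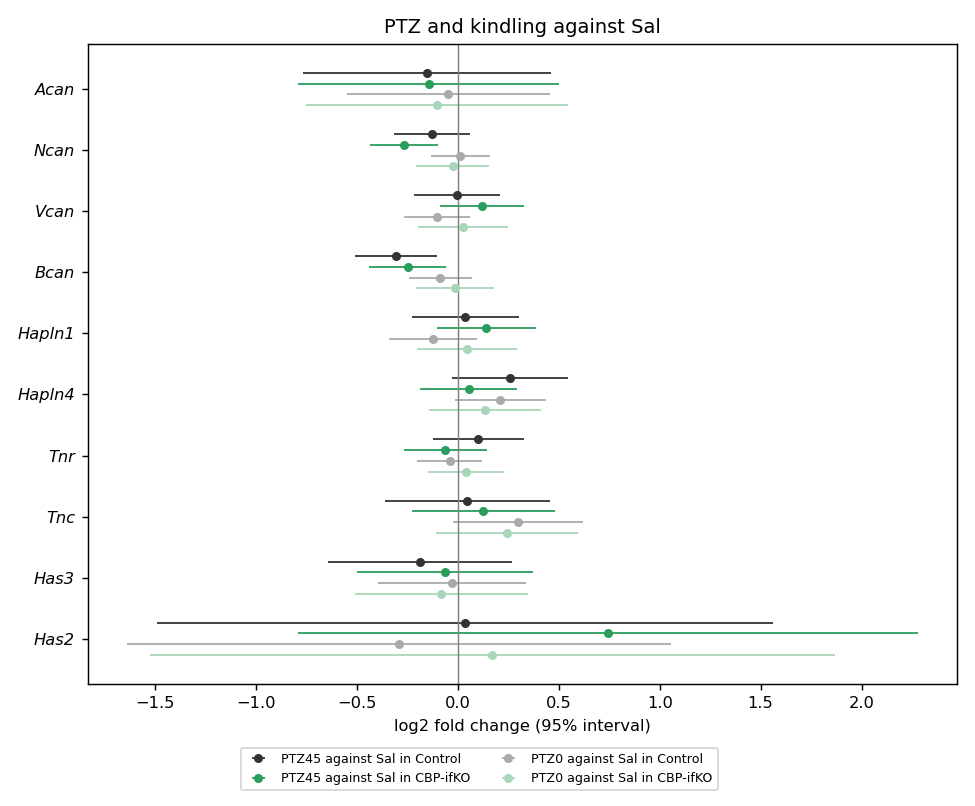
Log2 fold change against Sal of the same genotype with its 95% interval, for PTZ45 (black in controls, green in CBP-ifKOs) and PTZ0 (grey in controls, pale green in CBP-ifKOs). The intervals of Bcan in both genotypes and of Ncan in CBP-ifKOs lie below 0 for PTZ45, with no adjusted p under 0.05.

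Whether the response to PTZ45 differed between genotypes was tested as an interaction on the Sal and PTZ45 libraries. None of the 10 members was called by DESeq2 and 0 by edgeR, 0 had an unadjusted p under 0.05, and 0.329% of genes were called. The interaction was -0.14 for Ncan (95% interval -0.39 to 0.10), 0.06 for Bcan (-0.22 to 0.33), 0.12 for Vcan (-0.14 to 0.39) and 0.02 for Acan (-0.83 to 0.86). It was 0.10 for Hapln1, -0.21 for Hapln4, -0.17 for Tnr, 0.08 for Tnc, 0.73 for Has2 and 0.13 for Has3.

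A wider list of 77 matrix genes was examined beside the set, in which 2 were called higher and 24 lower over all treatments among 73 with an adjusted p, against 7.76% and 11.5% of all genes. Its median log2 fold change was -0.09, against 0.01 over all genes tested. Receptors and ligands of the net were called lower in 7 of 12 and higher in 0, with a median of -0.22. Chondroitin sulfate chain enzymes were called lower in 5 of 21 and higher in 1, proteases and their inhibitors lower in 4 of 19, other matrix proteoglycans and glycoproteins lower in 6 of 15, and hyaluronan and link protein genes lower in 2 of 10 and higher in 1. Without the 5 libraries rich in choroid plexus RNA 16 of the 77 were called, 1 of them among the chondroitin sulfate enzymes, and with lane as a term 2 were, where 1870 of 15846 and 131 of 16404 genes of the whole table were called.

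Nptx2, a neuronal pentraxin that gathers AMPA receptors on interneurons with nets, had the lowest log2 fold change among the called genes of the wider list. The paper already reports Nptx2 as lower in CBP-ifKOs, from screens that include the Sal mice of this experiment. Its normalized counts were 93.5 to 231 in controls, with a median of 123, and 42.3 to 73.6 in CBP-ifKOs, with a median of 55.0, and the genotypes did not overlap. The log2 fold change was -1.31 (SE 0.12, with an adjusted p of 2.30e-24 from DESeq2), and Nptx2 and Crtac1 were the genes still called with lane as a term (adjusted p 0.0432 and 0.00246).
Adamts1, a protease that cleaves aggrecan and versican, had 288 to 840.1 in controls and 162 to 418 in CBP-ifKOs, with -0.98 (SE 0.19, adjusted p 6.57e-06). Dcn, the small proteoglycan decorin, which is also a marker of meningeal fibroblasts, had -0.71 (SE 0.21, adjusted p 0.00535), and the sum of the 6 meningeal markers, Dcn included, was 882 to 1450.0 in controls and 409 to 1201 in CBP-ifKOs, with 1 of the 6, Igf2, at 0 in some libraries.
Crtac1, a secreted matrix protein first described in cartilage, had -0.54 (SE 0.06, adjusted p 1.07e-19), and Plat, the tissue plasminogen activator, -0.52 (SE 0.06, adjusted p 1.02e-13). The higher genes were Cemip, a hyaluronan-degrading protein, at 0.19 (SE 0.05, adjusted p 0.00109), and Dsel, an epimerase of dermatan sulfate, at 0.14 (SE 0.05, adjusted p 0.0231), and neither was called without the 5 libraries.

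Within treatments the wider list had 4 genes called lower in Sal (Adamts1, Plat, Nptx2, Crtac1), 7 in PTZ0 (led by Nptx2, Adamts1, Plat, Crtac1 and Spock2) and 5 in PTZ45 (Plat, Rtn4rl1, Nptx2, Dcn, Crtac1), and 0 called higher, where 2.04%, 6.68% and 3.07% of all genes were called in either direction. The edgeR test called 3, 4 and 5, and its 5 in PTZ45 did not include Rtn4rl1. Among the proteases and their inhibitors in PTZ45, DESeq2 called 1, Plat, while edgeR called 2 and DESeq2 with the GC correction also called 2. In Sal, of the 6 fits that left out 1 library, Adamts1 was called in 1, Nptx2 in 2, and Plat and Crtac1 in 6. In PTZ0 Spock2 was called in 3 of 6 such fits, Plat in 4, Crtac1 in 5, and Nptx2 and Adamts1 in 6, while Cntn1 was called in 1 and Ptprz1 in 2. In PTZ45 Rtn4rl1 was called in 1 of 5, Plat in 2, Dcn in 3, Crtac1 in 4 and Nptx2 in 5. Without the 5 libraries rich in choroid plexus RNA the calls of Plat (adjusted p 0.0976 by DESeq2) and Nptx2 (0.547) in Sal, of Spock2 (0.777), Crtac1 (0.0541), Cntn1 (0.838) and Ptprz1 (0.760) in PTZ0, and of Plat (0.0977) and Rtn4rl1 (0.232) in PTZ45 were lost. With the GC correction Spock2 in PTZ0 (adjusted p 0.0816 by DESeq2) and Dcn in PTZ45 (0.0623) were not called. In 1 fit of all 17 libraries the calls of Adamts1 in Sal and PTZ0, of Spock2, Cntn1 and Ptprz1 in PTZ0 and of Dcn in PTZ45 were lost. After PTZ45 2 genes of the list were called higher in controls against both Sal and PTZ0, where 1.17% and 1.25% of all genes were called in either direction. Adamts1 went from 316 to 364 in Sal and 288 to 390.0 in PTZ0 up to 694 and 840.1, with log2 fold changes of 1.17 (SE 0.13, with an adjusted p of 4.26e-16 from DESeq2) and 1.21 (SE 0.14, adjusted p 5.17e-16). Nptx2 had 0.90 (SE 0.21, adjusted p 0.00376) and 0.69 (SE 0.20, adjusted p 0.0475), and its call against Sal was lost without Control Sal 1 or 2 or Control PTZ45 1, and that against PTZ0 without any of the Control PTZ0 libraries or Control PTZ45 1, with TMM size factors and in 1 fit of all libraries. Without the 5 libraries rich in choroid plexus RNA neither call of Nptx2 was made (adjusted p 0.0573 and 0.328 by DESeq2). Chpf, a chondroitin polymerizing factor, was called lower against Sal at -0.47 (adjusted p 0.0488), a call lost in each fit that left out 1 of the 5 libraries, with the GC correction and in edgeR.
In CBP-ifKO PTZ45 against Sal Adamts1 had 0.41 (SE 0.46) and Nptx2 0.36 (SE 0.28), and 0 of the 77 genes were called by DESeq2 or edgeR, with 9 at an unadjusted p under 0.05, where 0.294% of all genes were called. The same test against PTZ0 in CBP-ifKOs called 0, with 6 at an unadjusted p under 0.05, kindling alone called 0 in either genotype, with 3 genes of the controls and 0 of the CBP-ifKOs at an unadjusted p under 0.05, and the interaction called 0, with 1. The edgeR test also called 0 in these 4 comparisons, in which 0.0872%, 0.00843%, 0.0112% and 0.329% of all genes were called by DESeq2.

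**Figure D5:**
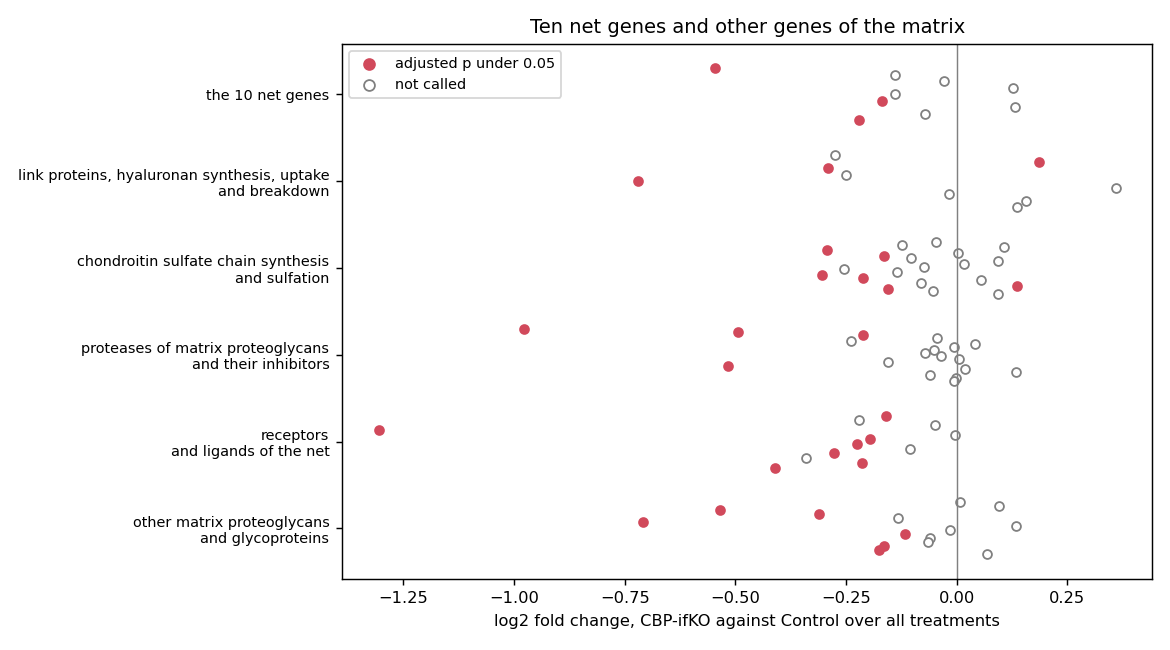
Log2 fold change of CBP-ifKO against Control over all treatments for the 9 net genes with an adjusted p (Has2 had none) and for 73 other matrix genes by role, filled red where the adjusted p was under 0.05 and open otherwise. Of the 26 called genes outside the net set, 24 lie left of 0, with Nptx2 farthest at -1.31.

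Each lectican gene has a link protein gene as its neighbour, with 0 protein-coding genes between them in GENCODE M21. Acan (chromosome 7, 79053483 to 79115099, GRCm38) ends 2 bases before Hapln3 on the opposite strand, Ncan (chromosome 8, 70093085 to 70120873) lies 2222 bases from Hapln4, Vcan (chromosome 13, 89655312 to 89742509) lies 43659 bases from Hapln1, and Bcan (chromosome 3, 87987531 to 88000230) lies 21519 bases from Hapln2. The neighbours gave a mixed picture over all treatments. Hapln3, the partner of Acan, was called lower at -0.72 (SE 0.26, with an adjusted p of 0.0363 from DESeq2), with a mean of 16.1 normalized counts in controls and 9.38 in CBP-ifKOs, and the call was lost in 11 of 17 fits that left out 1 library. Hapln2, the partner of Bcan and a link protein of the node of Ranvier, had -0.25 (SE 0.10, adjusted p 0.0768), Hapln1, the partner of Vcan, had -0.03, and Hapln4, the partner of Ncan, 0.13. Whether strand was used in counting is not stated, so Acan and Hapln3 reads near their facing ends may be shared.

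The remaining members lie at chromosome 13, 89539796 to 89611652 (Hapln1), chromosome 8, 70083457 to 70090862 (Hapln4), chromosome 1, 159523769 to 159931729 (Tnr), chromosome 4, 63959785 to 64047015 (Tnc), chromosome 15, 56665627 to 56694539 (Has2) and chromosome 8, 106870242 to 106884566 (Has3), all as protein-coding genes. Antisense transcripts overlap Vcan (Gm4117, mean 63.8 normalized counts against 631.0 for Vcan) and Has2 (Has2os, 2.26 against 7.16), and Chtf8 overlaps Has3 from the other strand (21.3 against 100.7). Gm37731 (99.9 against 3390 for Tnr) overlaps Tnr on the same strand. Whether reads were counted by strand is not given in the sources used here, so the levels of these members are uncertain.

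The genes that followed the 3 called lecticans most closely over the 17 libraries, by Pearson correlation of log2 normalized counts, are given as a description. Points share genotype, lane and depth. For Acan they were Igsf9b, Fyb2 and Kctd16, with r of 0.87, 0.85 and 0.84. For Vcan they were Anks1b, Hs2st1 and Mirt1, each with r of 0.89, and for Ncan Lmtk2, Adgrb1 and Ube2o, with r of 0.95, 0.94 and 0.94.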

How the data were processed

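RNA-seq libraries of hippocampus (single-end reads of total RNA) were made from individual mice. Per the labels and the methods, the authors trimmed reads with Trim Galore 0.6.4, checked them with FastQC 0.11.8, aligned them to GRCm38 with STAR 2.6.1 and counted exonic reads per Ensembl gene with Rsubread. The deposited values are raw counts per gene. The table holds 18 columns of counts, of which 1 matched no sample and was not used.

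Counts were tested with DESeq2 1.42.0 in R 4.3.3 (two-sided Wald test, genes with at least 1 count, Benjamini-Hochberg adjustment with independent filtering, called under 0.05). Each pair of groups was fitted alone, and genotype over all treatments was fitted on 17 libraries with treatment as a term. The script was tested on simulated counts. Intervals are 95% Wald intervals. Alternatives were edgeR 4.0.16 (quasi-likelihood test), TMM size factors, a filter of 10 counts in 2 libraries, 1 fit of all libraries, a replicate block, a loess correction for GC content (span 0.5), lane as a term, leaving out each library, and, chosen after seeing the data, leaving out 5 libraries rich in choroid plexus RNA. Named were all 10 members and, of the wider list, per comparison at most 5 called genes per direction by size of change where the gene averaged 50 or more normalized counts, with Hapln2 and Hapln3 always and, for each called member, the 3 genes of that mean most correlated with it. The members and lists were chosen with earlier results of these data known. Each library is 1 animal.

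Libraries held 5831992 to 18735643 counts, and chi-square per degree of freedom between replicates of a group was 2.31 to 18.0, above sampling noise, so depth alone does not set the precision. Same-numbered libraries of different groups had correlations of their deviations from -0.52 to 0.53 (40 pairs, median -0.06), so the replicate numbers were not taken as pairs.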

Additional observations from a re-analysis of the deposited data

How the results depend on the processing

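Acan, Ncan and Vcan were lower in CBP-ifKOs, and called, in each of the 17 fits over all treatments that left out 1 library, with log2 fold changes of -0.59 to -0.46, -0.19 to -0.14 and -0.25 to -0.20. With lane as a term 0 members were called in place of 3. In 1 fit of all libraries 1 member, Vcan, was called for genotype in Sal, in place of 0. For PTZ45 against PTZ0 in controls, leaving out 1 library gave 0 to 1 called members, and the calls came from fits with 1 library in the PTZ45 arm. With the replicate block, 3 members were called for genotype over all treatments (Acan -0.57, Ncan -0.17, Vcan -0.22), where 3223 of 17186 genes were called. Since the numbers do not pair the animals, this block has no basis in the design. Of 110 pairs of a member and a comparison, 7 gained or lost a call in some alternative, and of the 107 not called 44 changed sign in some alternative. Acan and Has2 had the fewest counts of the set, 28 to 97 and 3 to 12 per library, and the part of depth in their results was not tested.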
